A study of Mus musculus with 14 samples.

Results

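Skin that had lost Nedd8 in its keratinocytes and was also treated with imiquimod was set against skin with neither change. The comparison used 5 of the 14 libraries of the series, chosen by their labelled genotype and treatment and read across all genes. Knockout imiquimod skin (2 libraries) came from NEDD8fl/fl mice positive for K14-CreERT, which were induced on 5 days and then received Aldara cream with 5% imiquimod each day from day 0 up to day 7. Cre-negative DMSO skin (3 libraries) came from NEDD8fl/fl mice that lacked K14-CreERT and received DMSO. All 5 libraries therefore carry the floxed allele. K14-CreERT acts in keratinocytes and their appendages, so the other cells of the skin keep the gene. The labels give an induction for knockout mice only and no cream without imiquimod, so induction and genotype, and cream base and imiquimod, cannot be told apart. They place the cream on the shaved back or the right ear without saying which library came from which site. The design text of the series describes a topical NEDD8 inhibitor, which no label of these libraries names.

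Cullin-RING ligases are the ubiquitin ligases that NEDD8, a relative of ubiquitin, activates when it is joined to their cullin subunit, and they mark proteins such as the NRF2 transcription factor, the NF-kB inhibitor IkB and cell cycle regulators for the proteasome. Imiquimod activates Toll-like receptor 7 and, spread on mouse skin, causes a psoriasis-like inflammation with thickened epidermis, neutrophils and cytokines of the IL-23 and IL-17 axis. Keratinocytes of wounded or inflamed epidermis switch from the keratins of normal layers to wound keratins and release alarmins and chemokines.

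The 2 knockout imiquimod libraries held 13149797 and 10068739 counts, and the 3 Cre-negative DMSO libraries held 15509178, 15437888 and 10839387. Nothing in the labels says that they came from separate animals, so p-values measure the spread between samples. Xist and Y-linked genes marked both knockout imiquimod libraries as male, and Cre-negative DMSO replicates 1 and 2 as male and 3 as female. Nedd8 itself had 308 and 150.5 CPM (the count of a gene scaled to library size) in knockout imiquimod skin, against 359.5, 289.7 and 291 CPM in Cre-negative DMSO skin, a log2 change of -0.45 ± 0.46 (SE) that did not pass the test (adjusted p = 0.52; exact permutation p = 0.4, two-sided, where 0.1 is the smallest possible). Replicate 2 lay below all Cre-negative libraries and replicate 1 within their range. The 3′ tag may lie outside the deleted part and Nedd8 is intact in other cells, so it checks the labels only weakly. The keratinocyte markers Krt5, Dsp and Trp63 were present in all 5 libraries but were not level. Krt5 had 542 and 1024 CPM in knockout imiquimod skin, against 794, 1140 and 943 CPM in Cre-negative DMSO skin. Dsp had 1123 and 1640 CPM in knockout imiquimod skin, against 3120, 3939 and 2714 CPM in Cre-negative DMSO skin. Trp63 had 37.8 and 58.7 CPM in knockout imiquimod skin, against 84.1, 115.9 and 114.6 CPM in Cre-negative DMSO skin. Dsp and Trp63 were thus lower without overlap, while Krt14, given below, was higher without overlap. Ptprc, the pan-leukocyte marker CD45, had 188 and 104 CPM in knockout imiquimod skin and 26.8, 22.2 and 37.5 CPM in Cre-negative DMSO skin. In bulk RNA, more or fewer cells of a type and more or less RNA per cell cannot be told apart.

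Of 16027 genes tested, 4332 passed the threshold of an adjusted p under 0.05 (quasi-likelihood test of edgeR, adjusted by Benjamini-Hochberg), which is 27.0% of all. Of these, 2405 were higher in knockout imiquimod skin (15.0%) and 1927 lower (12%). The median absolute log2 change of the called genes was 2.27, with 336 genes over 5 and 239 under -5. The median over all genes was -0.0027. Without knockout imiquimod replicate 1 the number called was 2501. The libraries of the 2 groups did not overlap for 9719 genes (60.6%), which included 4324 of the called ones. The plot of all genes has the neutrophil gene Mmp8 near its top and the keratin Krt77 near its bottom.

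**Figure D1:**
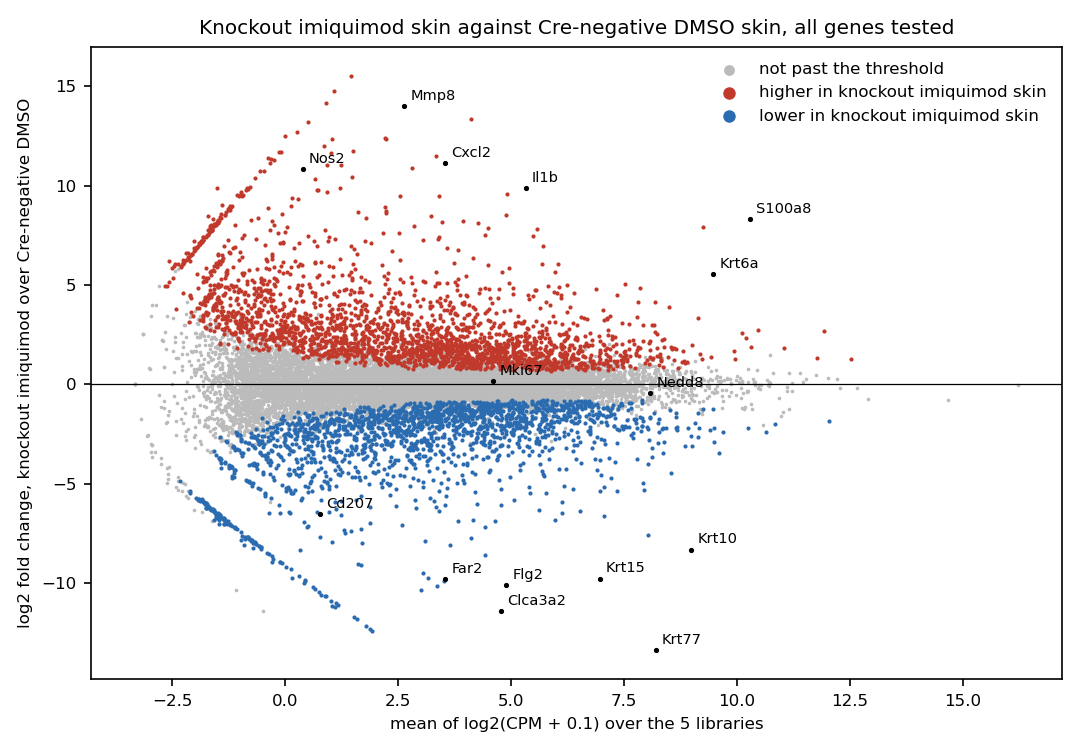
Log2 fold change of knockout imiquimod over Cre-negative DMSO skin (vertical axis) against the mean of log2(CPM + 0.1) over the 5 libraries (horizontal axis) for 16027 genes. Each point is a gene, coloured where it passed the threshold, and the straight lines of points at the edges are genes with 0 or few counts in one group, whose fitted change depends on the prior count.

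The rise with the highest values was in genes of neutrophils, the phagocytes that enter skin first. Of 24 tested neutrophil markers, 23 rose and 1 fell in knockout imiquimod skin, with a median log2 change of 8.41 (8.13 with genes at 0 counts set to their lower bound), beside 15.0% higher and 12% lower among all genes. Mmp8, the neutrophil collagenase, had 2208 and 698 CPM in knockout imiquimod skin and 0.0559, 0.0547 and 0.146 CPM in Cre-negative DMSO skin, a log2 change of 13.99 ± 1.09 (adjusted p = 2.4e-06). Ly6g, the antigen that defines mouse neutrophils, had 81.3 and 30.4 CPM in knockout imiquimod skin and no count in any Cre-negative DMSO library, so it was at least 928-fold higher, with 3 counts over the group taken as the floor. Retnlg, a resistin-like protein of neutrophils, had 1416 and 788 CPM in knockout imiquimod skin, against 0.224, 0.274 and 0.656 CPM in Cre-negative DMSO skin. In each of these genes the lower knockout imiquimod library lay far above the highest Cre-negative one.

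Receptors by which neutrophils sense microbes and damage rose too. Fpr1, a receptor for bacterial formyl peptides, had 94.1 and 61.7 CPM in knockout imiquimod skin and none in Cre-negative DMSO skin, at least 1300-fold higher. Clec4e, the lectin receptor Mincle, had 144 and 87.9 CPM in knockout imiquimod skin, against a single count over the 3 Cre-negative DMSO libraries, a ratio of 5880 with an exact 95% counting interval of 1060 to 232000. Trem1, a receptor that amplifies Toll-like receptor signals, had 265 and 205 CPM in knockout imiquimod skin and 3 counts in Cre-negative DMSO skin, a ratio of 3940 (interval 1350 to 19100). The exception in the list was Asprv1, a protease that neutrophils and the cornified layer both make, which fell. Counting intervals cover counting error only, because reads were not counted as single molecules.

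Proteins of neutrophil granules and alarmins, which kill microbes or bind their metals, followed. Of 32 tested alarmins and antimicrobial proteins 25 rose and 3 fell (S100a7l2, Defb6 and Lyz1), with a median log2 change of 6.10. Ngp, a granule protein of immature neutrophils, had 1145 and 188 CPM in knockout imiquimod skin and 0.0559, 0.109 and 0.219 CPM in Cre-negative DMSO skin (log2 12.32 ± 1.22, adjusted p = 1.4e-05). Ltf, lactoferrin, had 40.7 and 2.92 CPM in knockout imiquimod skin, against 0.112, 0.0547 and 0.146 CPM in Cre-negative DMSO skin (log2 7.64 ± 1.03). Both genes were several times higher in replicate 1 than in replicate 2 of knockout imiquimod skin. Saa3, a serum amyloid A that epithelia and macrophages release, had 6848 and 1775 CPM in knockout imiquimod skin and 0.336, 0.274 and 0.656 CPM in Cre-negative DMSO skin (log2 13.33 ± 0.99, adjusted p = 1.9e-06). Cstdc4, a stefin-type protease inhibitor whose near-identical relatives make its count uncertain, had 367 and 415 CPM in knockout imiquimod skin and none in Cre-negative DMSO skin, at least 6500-fold higher.

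S100a8, which forms calprotectin with S100a9 and is made by both neutrophils and inflamed keratinocytes, had 81710 and 34420 CPM in knockout imiquimod skin, against 37.1, 65 and 452 CPM in Cre-negative DMSO skin (log2 8.30 ± 1.23, adjusted p = 2.9e-04). Cre-negative DMSO replicate 3 stood above the other 2 for S100a8 and S100a9, still far below the lowest knockout imiquimod library. S100a9 had 27810 and 17470 CPM in knockout imiquimod skin and 23.4, 30.4 and 229 CPM in Cre-negative DMSO skin (log2 7.91 ± 1.07). Defb4, a beta-defensin of keratinocytes, had 25.3 and 37.1 CPM in knockout imiquimod skin and 2 counts in all of Cre-negative DMSO skin, a ratio of 767 (interval 211 to 6340). Camp, cathelicidin, had 17.7 and 8.59 CPM in knockout imiquimod skin and 1 count in Cre-negative DMSO skin, a ratio of 674 (interval 120 to 26700).

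Monocyte and macrophage markers rose in part: 15 of 27 rose and 1 (Fcrls) fell, with a median log2 change of 1.89, and 8 rose without knockout imiquimod replicate 1. Those described next are made by inflammatory cells. Nos2, the inducible nitric oxide synthase, had 69.4 and 34.4 CPM in knockout imiquimod skin and 1 count in Cre-negative DMSO skin, a ratio of 2650 (interval 475 to 105000). Spp1, osteopontin, had 526 and 173 CPM in knockout imiquimod skin, against 1.56, 0.657 and 1.38 CPM in Cre-negative DMSO skin (log2 8.18 ± 0.75, adjusted p = 7.9e-06). Ly6c2, a marker of inflammatory monocytes, had 70.6 and 25.4 CPM in knockout imiquimod skin, against 0.224, 0.219 and 0.729 CPM in Cre-negative DMSO skin (log2 6.97 ± 0.69). Resident macrophage genes such as Mrc1, Cd163, Lyve1, Mertk and Adgre1 did not pass the test. Acod1, which makes itaconate in activated macrophages and neutrophils, had 694 and 474 CPM in knockout imiquimod skin and 0.168, 0 and 0.146 CPM in Cre-negative DMSO skin (log2 12.38 ± 0.86, adjusted p = 1.2e-06).

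Chemokines, the proteins that draw leukocytes into tissue, rose more often than they fell. Of 31 tested chemokine and receptor genes 18 rose and 5 fell, with a median log2 change of 2.60; without knockout imiquimod replicate 1 the counts were 12 and 1, without knockout imiquimod replicate 2 they were 18 and 1, and without Cre-negative DMSO replicate 2 or 3 the number that fell was 2. Ligands for neutrophils were among those that rose. Cxcl2 had 1152 and 1204 CPM in knockout imiquimod skin and 0.168, 0.383 and 1.09 CPM in Cre-negative DMSO skin (log2 11.11 ± 0.73, adjusted p = 7.3e-07). Cxcl5, another ligand of the receptor CXCR2, had 184 and 114 CPM in knockout imiquimod skin and 1 count in Cre-negative DMSO skin, a ratio of 7580 (interval 1360 to 299000). Chemokines that draw monocytes also rose. Ccl4 had 936 and 562 CPM in knockout imiquimod skin, against 0.0559, 0.0547 and 1.17 CPM in Cre-negative DMSO skin (log2 10.89 ± 0.94, adjusted p = 5.4e-06). Ccl3 had 203 and 90.9 CPM in knockout imiquimod skin and 3 counts in Cre-negative DMSO skin, a ratio of 2520 (interval 861 to 12200). The 5 that fell were Ccl22, Ccl17, Ccl24, Cx3cl1 and Ccl27a, the first pair being ligands of CCR4 on T cells. Ccl27a, a keratinocyte chemokine that draws T cells to skin, had 2.59 and 1.33 CPM in knockout imiquimod skin and 68.4, 63.4 and 120.5 CPM in Cre-negative DMSO skin (log2 -5.41 ± 0.56, adjusted p = 2.0e-05).

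Cxcl2 is shown with its promoter because it had the smallest adjusted p of its list and NF-kB, a known activator of chemokine genes, has a defined site. The window runs from upstream of the start site into the first bases of the transcript (RefSeq, GRCm38.p6, plus strand, chr5:90903649-90903948), and capitals mark GGGNN followed directly by TTTCC.
Cxcl2: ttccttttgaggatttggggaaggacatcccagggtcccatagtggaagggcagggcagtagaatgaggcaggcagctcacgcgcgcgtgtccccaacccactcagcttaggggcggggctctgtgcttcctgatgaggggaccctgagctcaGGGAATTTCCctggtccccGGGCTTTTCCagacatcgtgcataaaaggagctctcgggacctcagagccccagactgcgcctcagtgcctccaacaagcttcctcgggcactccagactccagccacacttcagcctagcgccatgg
The motif, searched on both strands, stood at positions -97 and -78 counted from 0 at the start site. It was present in 1.63% of 32851 promoter windows, in 1.78% of those of all genes tested, in 3.13% of those of genes that rose and in 4 of 26 windows of the chemokine list (15.4%). The Ngp window (plus strand, chr9:110419558-110419857) is shown with TTGCNNAA in capitals, a core of the sites bound by C/EBP factors, which act in granulocyte development.
Ngp: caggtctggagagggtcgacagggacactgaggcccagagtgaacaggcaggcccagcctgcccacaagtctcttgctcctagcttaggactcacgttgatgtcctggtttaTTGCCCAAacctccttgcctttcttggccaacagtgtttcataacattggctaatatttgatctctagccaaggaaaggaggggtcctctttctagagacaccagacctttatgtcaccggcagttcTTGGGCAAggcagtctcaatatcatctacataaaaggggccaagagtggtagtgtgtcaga
This motif stood at -138 and -11, and in 10.8% of all windows, 9.11% of those of all genes tested, 11.3% of those of genes that rose and 7 of 23 windows of neutrophil markers (30.4%). In all, 4 motifs were searched over 10 sets of promoters, and motifs and promoters were chosen after the values were seen; the Il1b window held no NF-kB match. A match describes letters and not a site in use.

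Cytokines of the innate response rose. Il1b had 2729 and 2225 CPM in knockout imiquimod skin, against 1.90, 1.86 and 4.15 CPM in Cre-negative DMSO skin (log2 9.88 ± 0.62, adjusted p = 5.5e-07). Of 18 tested genes of the IL-1 and IL-36 family 10 rose and 2 fell (Il1f10 and Il36rn), with a median log2 change of 1.40. Without knockout imiquimod replicate 1 the counts were 7 and 0, and without Cre-negative DMSO replicate 3 they were 10 and 1. Il1r2, the decoy receptor of IL-1, had 894 and 378 CPM in knockout imiquimod skin and 57.6, 50.6 and 65.3 CPM in Cre-negative DMSO skin (log2 3.46 ± 0.52, adjusted p = 2.9e-04). The alarmin Il33 had 43 and 50.3 CPM in knockout imiquimod skin, against 18.6, 16.6 and 18.4 CPM in Cre-negative DMSO skin (log2 1.38 ± 0.36, adjusted p = 0.011), a rise that was lost without knockout imiquimod replicate 2. Il1rl1, which encodes its receptor ST2, had 132 and 37.7 CPM in knockout imiquimod skin and 2.29, 1.75 and 4.23 CPM in Cre-negative DMSO skin (log2 4.96 ± 0.58). Il36a, an IL-36 cytokine of inflamed keratinocytes, did not pass the test, with 13.6 and 49.1 CPM in knockout imiquimod skin and 34.9, 36.9 and 62.5 CPM in Cre-negative DMSO skin.

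Growth factors and cytokines of the epidermis rose in 15 of 25 tested genes and fell in 3, Erbb2 and Tslp among them, with a median log2 change of 3.07. Csf3, the granulocyte colony-stimulating factor, had 153 and 57 CPM in knockout imiquimod skin, against 0.0559, 0.0547 and 0.219 CPM in Cre-negative DMSO skin (log2 9.90 ± 0.78, adjusted p = 2.7e-06). Il24, a cytokine of wounded keratinocytes, had 170.3 and 135 CPM in knockout imiquimod skin and none in Cre-negative DMSO skin, at least 2540-fold higher. The EGF receptor ligands Hbegf and Areg were also higher. Hbegf had 356 and 524 CPM in knockout imiquimod skin and 16.4, 17.7 and 20.7 CPM in Cre-negative DMSO skin (log2 4.59 ± 0.35). Areg, amphiregulin, had 145 and 295 CPM in knockout imiquimod skin and 8.95, 9.79 and 9.76 CPM in Cre-negative DMSO skin (log2 4.53 ± 0.43). Tslp, which acts on dendritic cells, had 0.533 and 0.885 CPM in knockout imiquimod skin and 1.79, 2.68 and 3.35 CPM in Cre-negative DMSO skin (log2 -1.87 ± 0.64, adjusted p = 0.045), and the call was lost without either knockout imiquimod library, without Cre-negative DMSO replicate 2 or 3, without knockout DMSO replicate 1 and with the sex term (adjusted p = 0.11).

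The IL-23 and IL-17 axis, the T cell arm of psoriasis-like inflammation, passed in both directions, with a median log2 change of -0.63. Of 21 tested genes 4 rose (19.0%, near the 15.0% of all genes) and 7 fell (33.3%, beside 12%). Without knockout imiquimod replicate 1 the counts were 2 and 5. Il23a, the specific subunit of IL-23, had 2.97 and 8.41 CPM in knockout imiquimod skin, against 0.224, 0.219 and 0.437 CPM in Cre-negative DMSO skin (log2 4.27 ± 0.55, adjusted p = 9.8e-05). Nfkbiz, the IkB-zeta cofactor of IL-17 responses, had 314 and 192 CPM in knockout imiquimod skin, against 13.4, 11.3 and 13.8 CPM in Cre-negative DMSO skin (log2 4.30 ± 0.59). Il17a had no count in any of the 5 libraries, and had 1.44 and 1.82 CPM in Cre-negative imiquimod skin. Receptors and factors of IL-17-producing cells were among those that fell, including Ccr6 and Rora. Il22ra2, the soluble receptor that neutralises IL-22, had 0 and 0.266 CPM in knockout imiquimod skin and 6.76, 7.44 and 7.80 CPM in Cre-negative DMSO skin, the Cre-negative level being 59.4 times the knockout imiquimod one (counting interval 20.2 to 290).

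Sensors and feedback inhibitors of Toll-like receptor and NF-kB signalling rose in 15 of 31 tested genes and fell in 0, with a median log2 change of 1.10. Cd14, the co-receptor for lipopolysaccharide, had 713 and 489 CPM in knockout imiquimod skin, against 1.79, 2.19 and 3.79 CPM in Cre-negative DMSO skin (log2 7.86 ± 0.52, adjusted p = 8.2e-07). Tlr2 had 199 and 67.8 CPM in knockout imiquimod skin and 3.13, 2.96 and 4.23 CPM in Cre-negative DMSO skin (log2 5.28 ± 0.57). Bcl3, an atypical IkB protein, had 299.7 and 200.4 CPM in knockout imiquimod skin and 15.4, 15.2 and 21.8 CPM in Cre-negative DMSO skin (log2 3.84 ± 0.36). The inhibitors Nfkbia, Nfkbie and Tnfaip3 rose as well, while Tlr7, the receptor for imiquimod, and the NF-kB subunits Rela, Rel, Relb and Nfkb1 did not pass the test. Tnf had 32.6 and 23.7 CPM in knockout imiquimod skin and 0.783, 0.492 and 0.729 CPM in Cre-negative DMSO skin (log2 5.39 ± 0.53, adjusted p = 1.2e-05).

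Interferon response genes moved less, with 22.2% higher and 6.67% lower, beside 15.0% and 12% of all genes. Of 45 tested, 10 rose and 3 fell (Psmb9, Tap1 and Irf9), with a median log2 change of 0.48; without knockout imiquimod replicate 1 the counts were 4 and 3, and without replicate 2 they were 10 and 0. Oas2, an antiviral oligoadenylate synthetase, had 5.17 and 2.83 CPM in knockout imiquimod skin, against 0.112, 0.164 and 0.146 CPM in Cre-negative DMSO skin (log2 4.76 ± 0.61, adjusted p = 1.0e-04). Ifi204, a sensor of DNA, had 58.4 and 37.5 CPM in knockout imiquimod skin, against 17.6, 11 and 17.6 CPM in Cre-negative DMSO skin (log2 1.64 ± 0.30).

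Genes of necroptosis, pyroptosis and apoptosis rose in 13 of 32 tested members and fell in 5, with a median log2 change of 0.57. The counts were 7 and 1 without knockout imiquimod replicate 1, 13 and 3 without replicate 2, and 9 and 3 or 11 and 3 without Cre-negative DMSO replicate 2 or 3. Nlrp3, the inflammasome sensor, had 28.7 and 43.6 CPM in knockout imiquimod skin, against 0.168, 0.0547 and 0.437 CPM in Cre-negative DMSO skin (log2 7.39 ± 0.83, adjusted p = 3.5e-05). Mlkl, which breaches the membrane in necroptosis, had 5.25 and 9.03 CPM in knockout imiquimod skin and 0.112, 0.109 and 0.510 CPM in Cre-negative DMSO skin (log2 4.91 ± 0.61). Ripk3, Casp4 and Gsdmd rose with them. The 5 that fell, Gsdma, Gsdma2, Gsdmc, Nlrp10 and Pycard, include the gasdermins of epithelia. Nlrp10 had 4.26 and 4.43 CPM in knockout imiquimod skin and 57, 57.3 and 59.7 CPM in Cre-negative DMSO skin (log2 -3.74 ± 0.48). Bcl2l11, the death-promoting BCL-2 relative BIM, had 63.8 and 41.4 CPM in knockout imiquimod skin and 6.15, 7.83 and 8.16 CPM in Cre-negative DMSO skin (log2 2.83 ± 0.29).

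**Figure D2:**
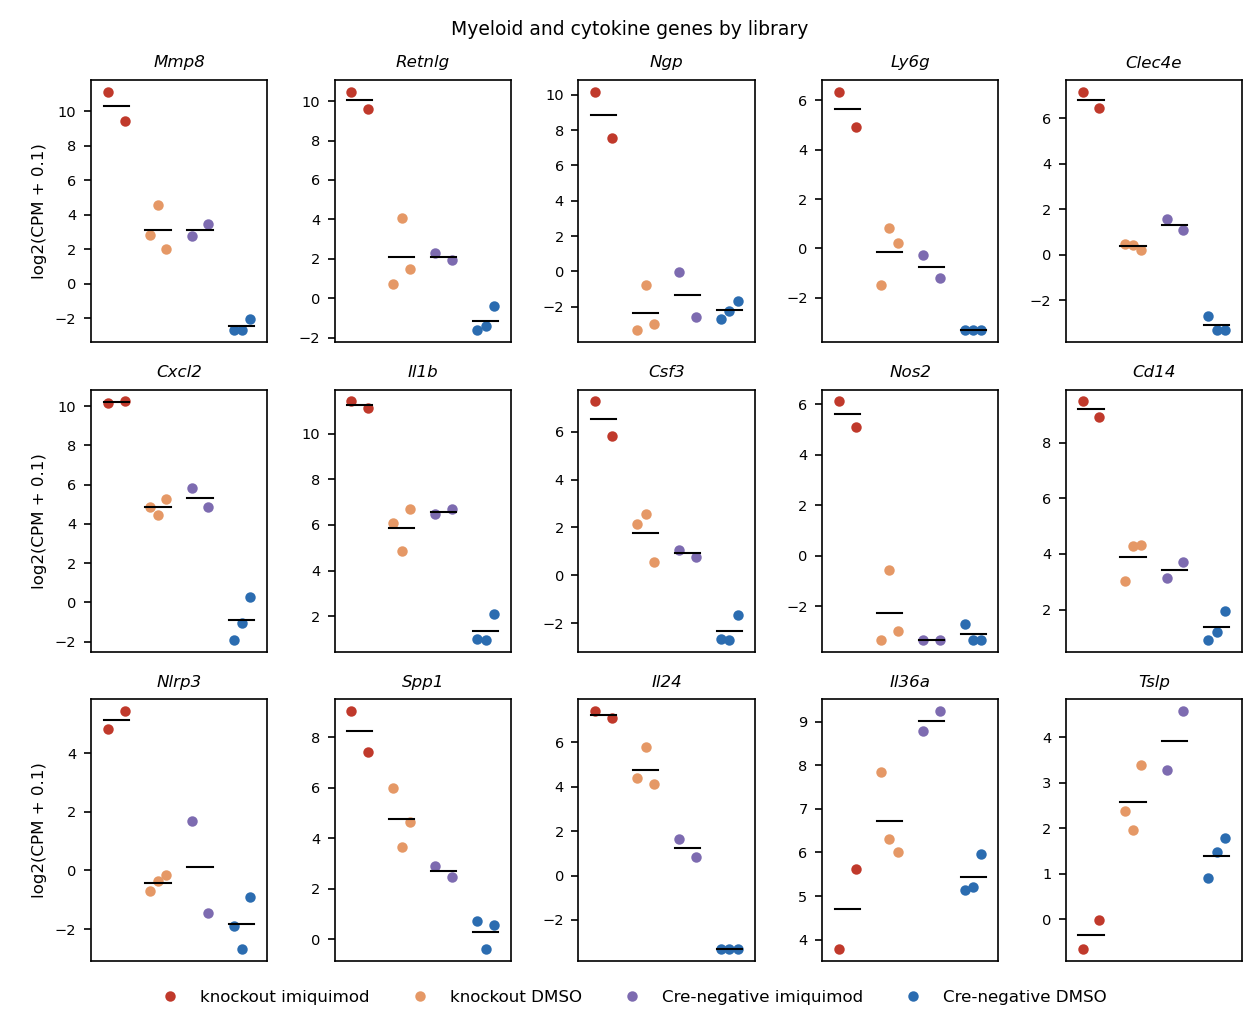
Expression of 15 myeloid and cytokine genes by library, as log2(CPM + 0.1), in knockout imiquimod (2 libraries), knockout DMSO (3), Cre-negative imiquimod (2) and Cre-negative DMSO skin (3). Points are libraries, bars are means of the log2 values, and each panel has its own axis; for 13 of the genes both knockout imiquimod libraries lie above all other libraries shown, while Il36a and Tslp are higher in Cre-negative imiquimod skin.

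Enzymes that cut the extracellular matrix rose in 22 of 28 tested genes and fell in 1 (Timp3, an inhibitor of them, a call lost without knockout imiquimod replicate 2), with a median log2 change of 3.42. Mmp13, an interstitial collagenase, had 450.5 and 154 CPM in knockout imiquimod skin, against 0.447, 0.109 and 0.729 CPM in Cre-negative DMSO skin (log2 9.49 ± 0.71, adjusted p = 2.1e-06). Mmp10, stromelysin-2 of migrating keratinocytes, had 90.3 and 29.9 CPM in knockout imiquimod skin and 3 counts in Cre-negative DMSO skin, a ratio of 1040 (interval 354 to 5040). Plaur, the urokinase receptor, had 151 and 195 CPM in knockout imiquimod skin, against 0.615, 0.821 and 1.97 CPM in Cre-negative DMSO skin (log2 7.27 ± 0.65). Mmp9, a gelatinase, had 452 and 242 CPM in knockout imiquimod skin and 11.6, 9.30 and 18.1 CPM in Cre-negative DMSO skin (log2 4.74 ± 0.57).

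Endothelial genes rose in 16 of 22 tested members and fell in 0, with a median log2 change of 1.88. The number was 7 without knockout imiquimod replicate 1 and 9 without Cre-negative DMSO replicate 3. Selp, the P-selectin on which leukocytes roll, had 19.6 and 10.5 CPM in knockout imiquimod skin, against 0.503, 0.711 and 0.510 CPM in Cre-negative DMSO skin (log2 4.69 ± 0.70, adjusted p = 2.9e-04). Vcam1, an adhesion molecule for leukocytes, had 110.5 and 66.1 CPM in knockout imiquimod skin and 6.54, 4.87 and 5.25 CPM in Cre-negative DMSO skin (log2 3.99 ± 0.59). Both genes are induced in inflamed vessels, and genes of resting vessels were higher too. Esam, a junction protein, had 78.8 and 47.6 CPM in knockout imiquimod skin and 13.6, 11.3 and 11.7 CPM in Cre-negative DMSO skin (log2 2.37 ± 0.32). The summed level of the list was 372.5 to 699.8 CPM in knockout imiquimod skin and 109.5 to 121.0 CPM in Cre-negative DMSO skin.

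Wound keratins rose in knockout imiquimod skin, while keratins of the upper epidermal layers fell. Of 24 tested wound keratins and small proline-rich proteins 20 rose and 1 (Ivl) fell, with a median log2 change of 4.84. Krt6a, the keratin of wounded epidermis, had 5298 and 9216 CPM in knockout imiquimod skin, against 127, 159.7 and 180 CPM in Cre-negative DMSO skin (log2 5.54 ± 0.43, adjusted p = 2.3e-06). Sprr2f, a small proline-rich protein of the cell envelope whose paralogs can share reads, had 553 and 1771 CPM in knockout imiquimod skin and 3.47, 4.16 and 12.3 CPM in Cre-negative DMSO skin (log2 7.46 ± 0.67). Sprr2h had 263 and 431 CPM in knockout imiquimod skin, against 7.38, 16.1 and 15.3 CPM in Cre-negative DMSO skin (log2 4.75 ± 0.41). In all of these the groups were far apart, with replicate 2 of knockout imiquimod skin the higher one. Ivl, involucrin, had 84.6 and 163 CPM in knockout imiquimod skin and 286, 257 and 311 CPM in Cre-negative DMSO skin (log2 -1.20 ± 0.38, adjusted p = 0.031), a call that was lost without knockout imiquimod replicate 1 and without any Cre-negative DMSO library. Krt17 did not pass the test.

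Sprr2f is shown as an example of the list with the AP-1 site TGANTCA in capitals (RefSeq, GRCm38.p6, plus strand, chr3:92364937-92365236), since AP-1 factors are known activators of these genes.
Sprr2f: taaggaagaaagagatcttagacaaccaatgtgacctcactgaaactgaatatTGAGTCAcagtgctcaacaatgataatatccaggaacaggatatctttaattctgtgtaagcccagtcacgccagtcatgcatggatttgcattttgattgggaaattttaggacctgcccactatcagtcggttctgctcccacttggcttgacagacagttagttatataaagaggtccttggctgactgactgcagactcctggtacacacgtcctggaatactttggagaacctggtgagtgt
The match stood at -197, and the motif was present in 7.81% of all windows, in 6.13% of those of all genes tested, in 8.95% of those of genes that rose and in 10 of 22 windows of this list (45.5%), whose members are neighbouring copies that share sequence. Fosl1, the AP-1 subunit FRA-1, had 58.7 and 56.9 CPM in knockout imiquimod skin and 4.03, 4.92 and 2.19 CPM in Cre-negative DMSO skin (log2 3.95 ± 0.41, adjusted p = 2.0e-05). A link between Fosl1 and the genes of this list was not tested.

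Keratins and envelope proteins of the layers above the basal one fell in 30 of 46 tested genes and rose in 3 (Tgm1, Tgm3 and Rptn), with a median log2 change of -2.92. The number that rose was 1 without knockout imiquimod replicate 2. Krt77, a keratin of suprabasal interfollicular epidermis and sweat ducts, was the gene with the lowest fitted change, with 0.837 and 1.42 CPM in knockout imiquimod skin and 9128, 16010 and 10620 CPM in Cre-negative DMSO skin (log2 -13.37 ± 1.26, adjusted p = 1.0e-05). Krt10, the keratin that fills spinous cells, had 15.4 and 20.4 CPM in knockout imiquimod skin and 1862, 6529 and 8589 CPM in Cre-negative DMSO skin (log2 -8.30 ± 1.15, adjusted p = 1.8e-04). Both groups were far apart in both genes, and Cre-negative DMSO replicate 1 had the lowest Krt10 of its group. Flg2, a filaggrin-like protein of the granular layer, had 0.304 and 0.531 CPM in knockout imiquimod skin and 399.5, 659.6 and 331 CPM in Cre-negative DMSO skin (log2 -10.11 ± 0.97, adjusted p = 1.1e-05). Dsg1a, a desmoglein that holds upper layers together, had 14.4 and 28.4 CPM in knockout imiquimod skin and 519, 634 and 509.5 CPM in Cre-negative DMSO skin (log2 -4.70 ± 0.50). These groups did not overlap either. Flg, filaggrin, had 48.4 and 113 CPM in knockout imiquimod skin and 774, 1162 and 748 CPM in Cre-negative DMSO skin (log2 -3.47 ± 0.99, adjusted p = 0.019), and this call was lost without either knockout imiquimod library. Klk5, a protease of shedding, had 6.77 and 7.17 CPM in knockout imiquimod skin and 53.4, 52.5 and 45.9 CPM in Cre-negative DMSO skin (log2 -2.86 ± 0.33).

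Basal keratinocyte genes passed in both directions, with 10 of 20 higher and 4 lower and a median log2 change of 0.69. Without knockout imiquimod replicate 1 the counts were 8 and 1, and without replicate 2 they were 8 and 2. Integrins, which anchor and move keratinocytes, were among the members that rose. Itga2, a collagen receptor subunit, had 39 and 36.9 CPM in knockout imiquimod skin and 4.86, 6.84 and 4.74 CPM in Cre-negative DMSO skin (log2 2.79 ± 0.33, adjusted p = 5.0e-05). Krt14 had 4655 and 7710 CPM in knockout imiquimod skin and 2316, 3103 and 1997 CPM in Cre-negative DMSO skin (log2 1.32 ± 0.38, adjusted p = 0.02), with the call lost without knockout imiquimod replicate 2 or Cre-negative DMSO replicate 1 or 3. Krt15, the keratin of quiescent basal and bulge cells, fell instead. It had 2.36 and 1.86 CPM in knockout imiquimod skin and 1941, 2016 and 1574 CPM in Cre-negative DMSO skin (log2 -9.76 ± 0.57, adjusted p = 4.2e-07).

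Many hair follicle and sebaceous gland genes fell. Among 20 tested follicle stem cell and duct genes, 12 fell and 1 (Plet1) rose, with a median log2 change of -2.83. Krt79, a keratin of the gland duct, had 13.1 and 4.69 CPM in knockout imiquimod skin and 678, 897 and 1052 CPM in Cre-negative DMSO skin (log2 -6.62 ± 0.60, adjusted p = 7.6e-06). Gata6, a transcription factor of that duct, had 0.0761 and 0.266 CPM in knockout imiquimod skin and 21.8, 20.6 and 22.4 CPM in Cre-negative DMSO skin (log2 -6.96 ± 0.81). Of 26 sebaceous lipid genes 15 fell and 2 rose (Plin2 and Fabp5; 1 rose without any one of the 5 libraries), with a median log2 change of -1.66. Far2, which makes wax alcohols, had 0.228 and 0.0886 CPM in knockout imiquimod skin and 161, 176 and 119 CPM in Cre-negative DMSO skin (log2 -9.79 ± 0.79, adjusted p = 3.0e-06). Elovl3, which lengthens fatty acids of sebum, had 0.152 and 0.0886 CPM in knockout imiquimod skin and 146, 123 and 64.3 CPM in Cre-negative DMSO skin, where the level was 938 times as high (counting interval 321 to 4550). Of 24 hair shaft genes 1 (Krt32) fell and 0 rose.

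Enzymes of the acylceramide barrier passed in both directions, with 6 of 27 higher (22.2%) and 8 lower (29.6%), beside 15.0% and 12% of all genes. Their median log2 change was -0.39. Alox12e, an epidermal lipoxygenase, had 0 and 0.266 CPM in knockout imiquimod skin and 104, 150.1 and 194 CPM in Cre-negative DMSO skin, where the level was 1190 times as high (counting interval 406 to 5750). Cers4, a ceramide synthase, had 12.8 and 5.31 CPM in knockout imiquimod skin and 370.1, 372 and 194 CPM in Cre-negative DMSO skin (log2 -5.10 ± 0.59). Sptssb, which alters the chain length made by serine palmitoyltransferase, rose, with 7.15 and 36.8 CPM in knockout imiquimod skin and none in Cre-negative DMSO skin, at least 366-fold higher. Core members of the pathway such as Alox12b, Aloxe3, Abca12 and Pnpla1 did not pass the test.

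Genes normally expressed in mucosal epithelia rose in 11 of 22 tested members and fell in 3 (Krt7, Krt78 and Muc15), with a median log2 change of 1.62; 1 fell without knockout imiquimod replicate 1 or Cre-negative DMSO replicate 2 or 3. Krt18, a keratin of simple epithelia, had 20.5 and 14.7 CPM in knockout imiquimod skin and 0.112, 0.164 and 0.0729 CPM in Cre-negative DMSO skin (log2 7.11 ± 0.74, adjusted p = 2.0e-05). Gcnt3, a mucin-type glycosyltransferase, had 15.8 and 38.8 CPM in knockout imiquimod skin and none in Cre-negative DMSO skin, at least 453-fold higher.

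**Figure D3:**
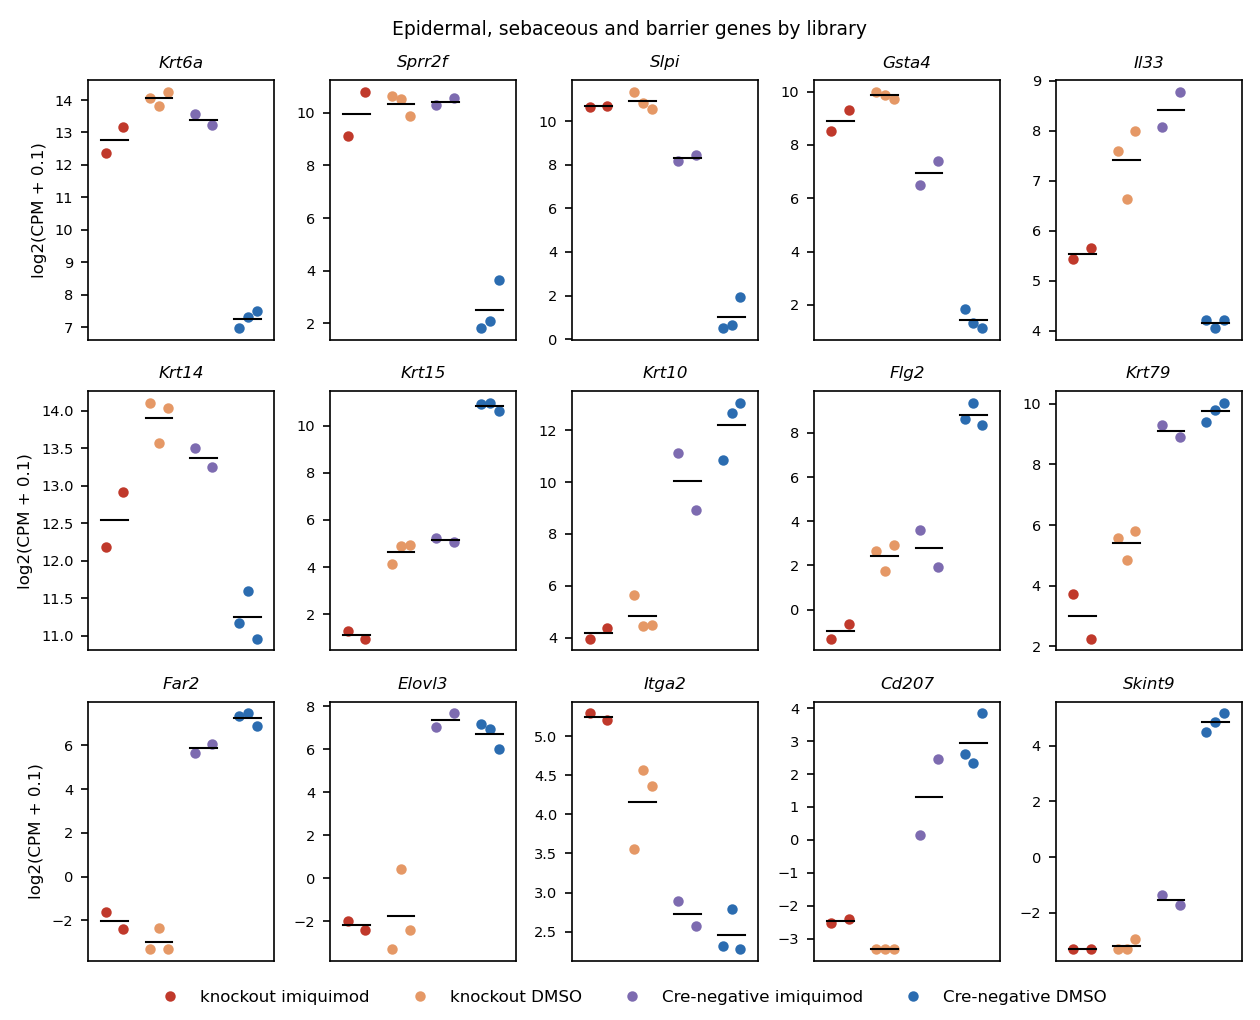
Expression of 15 epidermal, sebaceous and barrier genes by library, as log2(CPM + 0.1), in knockout imiquimod (2 libraries), knockout DMSO (3), Cre-negative imiquimod (2) and Cre-negative DMSO skin (3). Points are libraries, bars are means of the log2 values and each panel has its own axis; Krt15, Flg2 and Krt79 are lowest in knockout imiquimod skin, while Far2 and Elovl3 are near 0 in both knockout groups.

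NRF2 is a transcription factor that cullin-3 ligases destroy, and its target genes make glutathione and detoxify electrophiles. Of 43 tested targets 31 rose and 3 fell (Me1, Akr1c18 and Aldh3a1), with a median log2 change of 1.97; 1 fell without knockout imiquimod replicate 1. Gsta4, a glutathione transferase, had 365 and 628 CPM in knockout imiquimod skin, against 3.52, 2.41 and 2.11 CPM in Cre-negative DMSO skin (log2 7.52 ± 0.46, adjusted p = 4.2e-07). Gpx2, a glutathione peroxidase, had 354 and 564 CPM in knockout imiquimod skin and 1.79, 1.09 and 1.75 CPM in Cre-negative DMSO skin (log2 8.21 ± 0.58). Replicate 2 was the higher knockout imiquimod library for these genes, the opposite of Mmp8, Ngp and Ltf. Nqo1, the quinone reductase used as a standard readout of NRF2, had 36.7 and 105 CPM in knockout imiquimod skin and 4.30, 3.17 and 3.57 CPM in Cre-negative DMSO skin (log2 4.27 ± 0.50). Srxn1, sulfiredoxin, had 690.1 and 1484 CPM in knockout imiquimod skin and 49.8, 48.5 and 46.1 CPM in Cre-negative DMSO skin (log2 4.50 ± 0.34, adjusted p = 2.2e-06). Slpi, an antiprotease listed with these targets and with the alarmins, had 1617 and 1675 CPM in knockout imiquimod skin and 1.34, 1.48 and 3.72 CPM in Cre-negative DMSO skin (log2 9.57 ± 0.53).

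The Srxn1 promoter (RefSeq, GRCm38.p6, plus strand, chr2:152105274-152105573) is shown with the AP-1 letters TGANTCA in capitals, since Srxn1 is a known NRF2 target whose window holds both these letters and the antioxidant response element TGACNNNGC to which NRF2 binds.
Srxn1: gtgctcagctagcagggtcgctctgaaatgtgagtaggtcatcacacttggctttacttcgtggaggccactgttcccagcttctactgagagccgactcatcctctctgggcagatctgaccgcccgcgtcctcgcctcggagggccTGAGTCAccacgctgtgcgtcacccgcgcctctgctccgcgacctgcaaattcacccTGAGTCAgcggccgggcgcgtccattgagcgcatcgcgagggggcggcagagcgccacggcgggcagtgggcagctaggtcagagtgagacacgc
The AP-1 letters stood at -102 and -45. Those at -45 are followed by gc, and TGAGTCAgc differs from TGACNNNGC only in a G where the latter has C. Forms of the element with other letters were not searched. TGACNNNGC itself had 1 match in this window, at position 28 past the start site and apart from the capitals. It was in 12.4% of all windows, in 14.1% of those of all genes tested, in the same 14.1% of those of genes that rose and in 12 of 48 windows of NRF2 targets (25.0%); the Gsta4 window held no match.

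NEDD8 pathway and cell cycle genes rose at shares near that of all genes. Among 42 NEDD8 pathway and cullin genes 5 rose and 3 fell, a share near that of all genes, and the number that rose was between 1 and 3 without any one of the 5 libraries. Cops7b, a subunit of the COP9 signalosome that removes NEDD8 from cullins, had 16.1 and 14.6 CPM in knockout imiquimod skin, against 45.1, 49.1 and 45.5 CPM in Cre-negative DMSO skin (log2 -1.60 ± 0.29, adjusted p = 0.0013). Ccne1, the cyclin E that the SCF ligase removes, had 6.16 and 11.1 CPM in knockout imiquimod skin and 1.84, 2.02 and 1.82 CPM in Cre-negative DMSO skin (log2 2.18 ± 0.41, adjusted p = 0.0015). Of 54 cell cycle genes 10 rose and 3 fell (18.5% and 5.56%, beside 15.0% and 12% of all genes), with a median log2 change of 0.31. Without Cre-negative DMSO replicate 1 or 2 the counts were 6 and 2, and without knockout imiquimod replicate 2 they were 3 and 1 with a median of -0.16. Rrm2, a ribonucleotide reductase subunit of dividing cells, had 36.1 and 105 CPM in knockout imiquimod skin and 5.48, 8.81 and 10.3 CPM in Cre-negative DMSO skin (log2 3.11 ± 0.48). Mki67, the proliferation antigen, had 20.9 and 31.9 CPM in knockout imiquimod skin and 20.1, 25.4 and 24.4 CPM in Cre-negative DMSO skin, overlapping ranges that did not pass the test (adjusted p = 0.83).

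Of 30 p53 targets and inhibitors of cyclin-dependent kinases 11 rose and 2 fell, with a median log2 change of -0.12; 1 fell without knockout imiquimod replicate 1 or Cre-negative DMSO replicate 2. Gadd45a, a stress gene, had 29.1 and 31.8 CPM in knockout imiquimod skin and 4.47, 3.67 and 6.78 CPM in Cre-negative DMSO skin (log2 2.62 ± 0.34, adjusted p = 1.2e-04). Cdkn1a, which encodes p21, did not pass the test, with 209 and 192 CPM in knockout imiquimod skin and 234, 246 and 212 CPM in Cre-negative DMSO skin. Unfolded protein and integrated stress response genes rose in 10 of 32 and fell in 2, with a median log2 change of 0.76. Without knockout imiquimod replicate 1 or 2 the counts were 4 and 1 or 7 and 0, and without Cre-negative DMSO replicate 1 or 2 they were 8 and 0 or 6 and 2. Ppp1r15a, the phosphatase subunit GADD34, had 82.1 and 89.8 CPM in knockout imiquimod skin and 25.1, 26.3 and 21.9 CPM in Cre-negative DMSO skin (log2 1.81 ± 0.26). Proteasome subunits passed in 2 of 34 (Psmb5 and Psmd12, higher), with 1 left without knockout imiquimod replicate 1 and 0 without any other of the 5 libraries. Respiratory chain subunits passed in 1 of 36 (Ndufb5, lower), a call lost without any one of the 5 libraries compared and without knockout DMSO replicate 1 or 2, and kept without any one of the other 3 libraries of the floxed line. Hypoxia and glycolysis genes rose in 10 of 26 and fell in 0, among them the lactate exporter Slc16a3, with 786 and 382 CPM in knockout imiquimod skin and 63.2, 69.8 and 37.7 CPM in Cre-negative DMSO skin (log2 3.36 ± 0.36).

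Enzymes of lipid mediators passed in both directions, with 7 of 23 higher and 6 lower; the number lower was 3 without knockout imiquimod replicate 1 and 2 without replicate 2. The shares of this list were 30.4% higher and 26.1% lower, beside 15.0% and 12% of all genes. Ptgs2, the inducible cyclooxygenase, had 202 and 458 CPM in knockout imiquimod skin, against 0.671, 0.438 and 1.75 CPM in Cre-negative DMSO skin (log2 8.47 ± 0.91, adjusted p = 2.6e-05). Alox5ap, the helper protein of leukotriene synthesis, had 2376 and 1027 CPM in knockout imiquimod skin and 86.2, 79.8 and 127 CPM in Cre-negative DMSO skin (log2 4.12 ± 0.56). Epidermal transcription factors rose in 7 of 34 and fell in 7 (20.6% each, beside 15.0% and 12% of all genes). Without knockout imiquimod replicate 1 or 2 the number that rose was 3, and without Cre-negative DMSO replicate 2 it was 4. Gata3, a factor of epidermal barrier formation, had 144 and 139 CPM in knockout imiquimod skin and 1142, 1408 and 1122 CPM in Cre-negative DMSO skin (log2 -3.11 ± 0.36).

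Markers of the immune cells that live in mouse epidermis fell. Of 18 tested dendritic and Langerhans cell markers 11 fell and 1 (Cd24a, also a keratinocyte gene) rose, with a median log2 change of -2.62. Cd207, langerin of Langerhans cells, had 0.0761 and 0.0886 CPM in knockout imiquimod skin and 6.04, 4.92 and 14.2 CPM in Cre-negative DMSO skin, where the level was 96.3 times as high (counting interval 26.5 to 798). H2-Aa, a class II antigen-presenting chain, had 7.23 and 3.63 CPM in knockout imiquimod skin and 55.7, 75.1 and 95.9 CPM in Cre-negative DMSO skin (log2 -3.79 ± 0.46, adjusted p = 6.3e-05). T cell and NK cell markers fell in 8 of 21 and rose in 1, with a median log2 change of -1.55; 5 fell without knockout imiquimod replicate 1 and 2 without replicate 2. Trgc1, a constant region of the gamma-delta T cell receptor, had no count in knockout imiquimod skin and 5.31, 3.94 and 2.91 CPM in Cre-negative DMSO skin, at least 33-fold lower. Gzma, granzyme A, was the member that rose, with 16.5 and 9.83 CPM in knockout imiquimod skin and 0.615, 0.328 and 0.729 CPM in Cre-negative DMSO skin (log2 4.56 ± 0.64).

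Skint genes, which keratinocytes express and whose member Skint1 selects the gamma-delta T cells of mouse epidermis, were among the lowest. Skint9 had no count in knockout imiquimod skin and 22.2, 29.3 and 35.9 CPM in Cre-negative DMSO skin, at least 237-fold lower. Skint2, Skint5 and Skint10 also had no count in knockout imiquimod skin and were at least 157-fold, 145-fold and 138-fold lower. These paralogs can share reads, and all were present in every Cre-negative DMSO library. Clca3a2, a chloride channel regulator of resting epidermis, had 0.228 and 0.177 CPM in knockout imiquimod skin and 410.4, 527 and 764 CPM in Cre-negative DMSO skin (log2 -11.38 ± 1.18, adjusted p = 1.9e-05).

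Muscle and fat genes, from below the epidermis, fell. Skeletal muscle markers fell in 17 of 24 and rose in 0, with a median log2 change of -2.31, and 7 fell without knockout imiquimod replicate 2. Their summed level was 2593 to 7434 CPM in knockout imiquimod skin and 13650 to 34210 CPM in Cre-negative DMSO skin. Adipocyte markers fell in 11 of 17 and rose in 0. Adipoq, adiponectin, had 8.45 and 5.76 CPM in knockout imiquimod skin and 99.3, 26.5 and 79.1 CPM in Cre-negative DMSO skin (log2 -3.26 ± 0.55, adjusted p = 7.4e-04). Fibroblast and matrix genes passed in both directions, with 5 of 26 higher and 6 lower. These shares were 19.2% and 23.1%, beside 15.0% and 12% of all genes. The number higher was 1 without Cre-negative DMSO replicate 1 or 2 or knockout imiquimod replicate 1, and 3 without replicate 2, and 3 were lower without either knockout imiquimod library. Col14a1, a collagen of the dermis, had 1.22 and 0.974 CPM in knockout imiquimod skin and 18.4, 10.4 and 16.6 CPM in Cre-negative DMSO skin (log2 -3.77 ± 0.50). The part of a different depth of tissue in these values was not tested.

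Lists of other cell types were short, and are set beside 15.0% higher and 12% lower among all genes. Melanocyte markers rose in 5 of 10, a number that was 1 or 2 without any one of the 5 libraries. Tyrp1, a pigment enzyme, had 6.85 and 10.8 CPM in knockout imiquimod skin and 0.839, 0.383 and 0.801 CPM in Cre-negative DMSO skin (log2 3.70 ± 0.80, adjusted p = 0.0037). Of 8 mast cell markers 2 rose, Hdc, which neutrophils also express, and Kit, which melanocytes also express, while the mast cell proteases Cpa3, Cma1, Mcpt4 and Tpsb2 did not pass the test. The number was 1 without either knockout imiquimod library or Cre-negative DMSO replicate 1 or 2. B cell markers fell in 2 of 4 (1 without Cre-negative DMSO replicate 3 or either knockout imiquimod library), and nerve markers in 2 of 9 (1 without either knockout imiquimod library). HOX genes, which mark position along the body, fell in 7 of 25 and rose in 1. The counts were 5 and 2 without Cre-negative DMSO replicate 2, and 3 and 1 or 4 and 1 without knockout imiquimod replicate 1 or 2. Hoxc4 had 3.50 and 3.63 CPM in knockout imiquimod skin and 20.7, 18.1 and 17.4 CPM in Cre-negative DMSO skin (log2 -2.39 ± 0.37), and Hoxd10, the one that rose, had 7.53 and 3.98 CPM in knockout imiquimod skin and 0.951, 0.438 and 0.583 CPM in Cre-negative DMSO skin (log2 3.11 ± 0.61). The part of body site in the comparison was not tested.

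**Figure D4:**
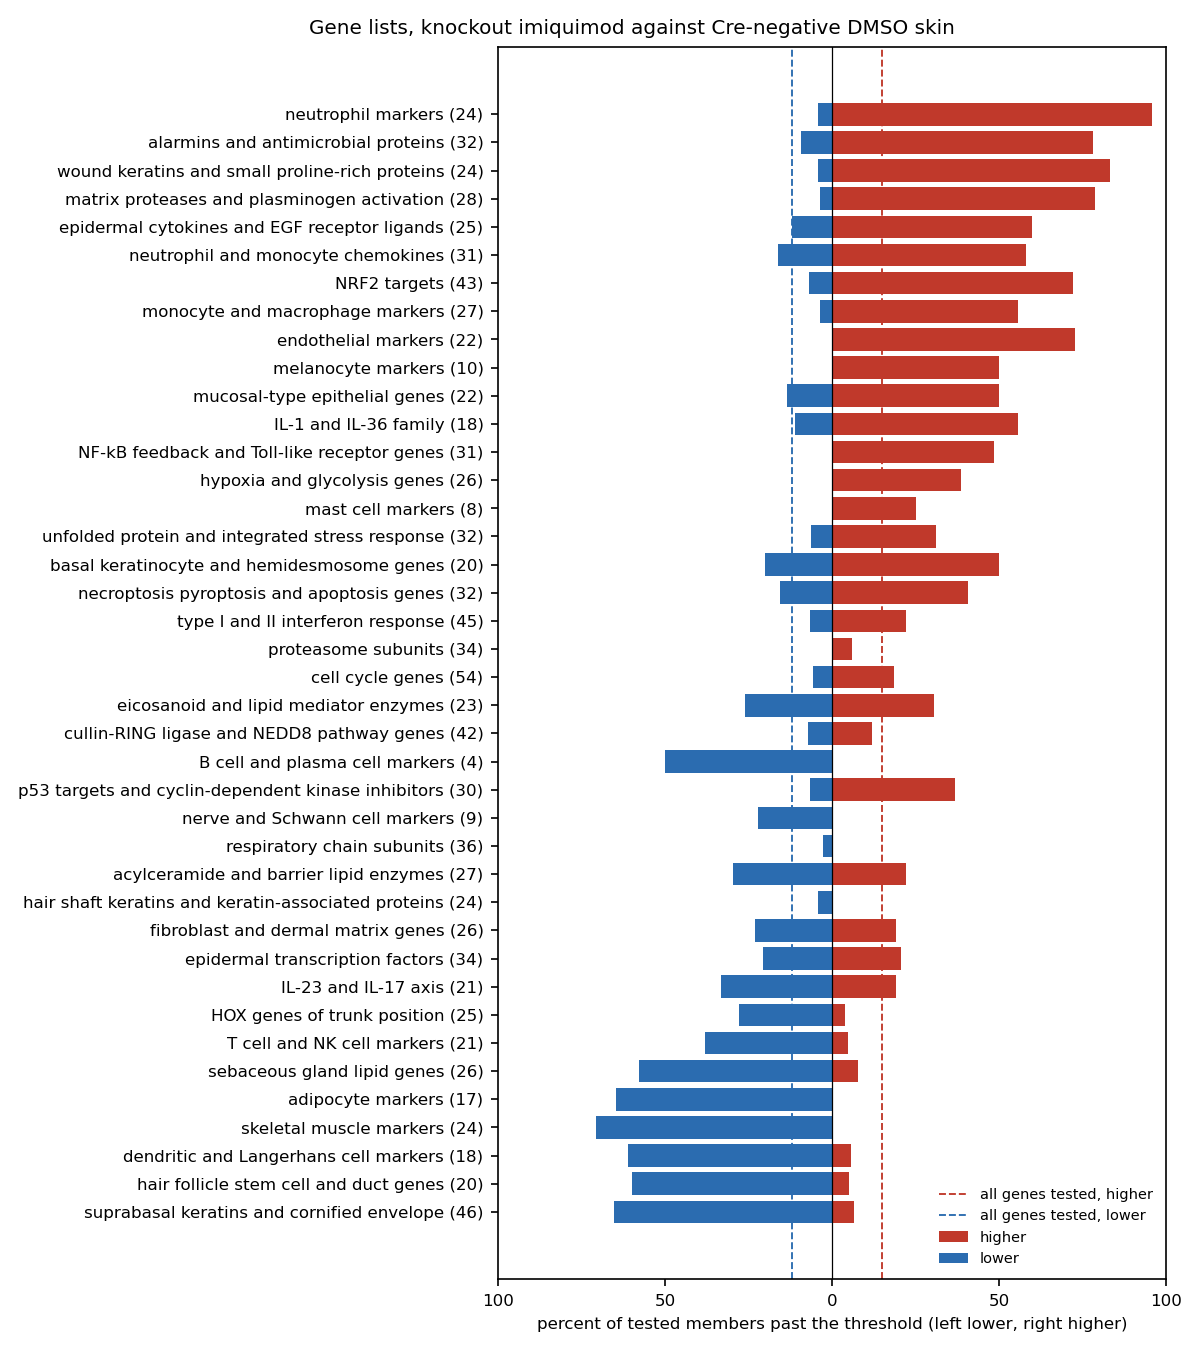
Percent of tested members of each of 40 gene lists that were higher (right) or lower (left) in knockout imiquimod than in Cre-negative DMSO skin, with the number tested in brackets and lists ordered by median change. Dashed lines mark all genes tested, 15.0% higher and 12% lower; neutrophil markers reach 95.8% higher, and suprabasal keratins and cornified envelope genes 65.2% lower.

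Skin with both changes was next set against skin with each change alone: knockout DMSO skin (NEDD8fl/fl, K14-CreERT positive, DMSO, 3 libraries) and Cre-negative imiquimod skin (NEDD8fl/fl, K14-CreERT negative, imiquimod, 2 libraries). The knockout DMSO libraries held 5552954, 9814586 and 34362477 counts, and the Cre-negative imiquimod libraries 7735269 and 20865337. Rn18s, a ribosomal RNA, took 17.46%, 8.26% and 3.84% of the knockout DMSO counts. It took 9.91% and 19.06% of the Cre-negative imiquimod counts. The highest Rn18s shares of the series were in knockout DMSO replicate 1 and Cre-negative imiquimod replicate 2. Against knockout DMSO skin 1776 genes passed (11.1%), 1372 higher (8.56%) and 404 lower (2.52%) in knockout imiquimod skin. Against Cre-negative imiquimod skin 2866 passed (17.9%), 1852 higher (11.6%) and 1014 lower (6.33%). Against Cre-negative DMSO skin, each change alone passed for 4752 genes in knockout DMSO skin (29.6%; 14% higher and 15.7% lower) and 2921 in Cre-negative imiquimod skin (18.2%; 8.15% higher and 10.1% lower). A gene was counted as beyond both where it passed these tests and the comparison with Cre-negative DMSO skin in the same direction, which was so for 872 genes (5.44%), 706 higher (4.41%) and 166 lower (1.04%). The 3 comparisons share the knockout imiquimod libraries. With library size as the only scaling, 1429 were higher and 186 lower against knockout DMSO skin, and 2443 higher and 496 lower against Cre-negative imiquimod skin. For each change alone that scaling gave 1183 higher and 3378 lower in knockout DMSO skin, and 537 higher and 3141 lower in Cre-negative imiquimod skin. The number beyond both was 178 without knockout imiquimod replicate 1, 491 without Cre-negative imiquimod replicate 1 and 529 without knockout DMSO replicate 3. Reads marked knockout DMSO skin as female in all 3 libraries and knockout imiquimod and Cre-negative imiquimod skin as male, and with sex as a term, which only the Cre-negative DMSO libraries inform, the count was 157. With that term 210 genes passed against knockout DMSO skin (206 higher, 4 lower), and 1448 in knockout DMSO against Cre-negative DMSO skin (505 higher, 943 lower). Single libraries also moved the other counts. Against knockout DMSO skin 339 genes passed without knockout imiquimod replicate 1 and 832 without knockout DMSO replicate 3. Against Cre-negative imiquimod skin 796 passed without knockout imiquimod replicate 1, 1497 without Cre-negative imiquimod replicate 1 and 1477 without its replicate 2. For knockout DMSO against Cre-negative DMSO skin the count was 3148 and 3123 without Cre-negative DMSO replicate 1 and 2. For Cre-negative imiquimod against Cre-negative DMSO skin it was 1272 without Cre-negative imiquimod replicate 2, and 1616 and 1644 without Cre-negative DMSO replicate 1 and 2.

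Neutrophil genes led the genes beyond both. Of 24 neutrophil markers 17 were higher beyond both and 0 lower, 14 to 17 without any one library of the 4 groups and 5 with the sex term. Their median log2 change was 5.10 over knockout DMSO skin and 4.99 over Cre-negative imiquimod skin. Ngp had 1145 and 188 CPM in knockout imiquimod skin, against 0, 0.485 and 0.0282 CPM in knockout DMSO skin and 0.861 and 0.0673 CPM in Cre-negative imiquimod skin. Retnlg had 1416 and 788 CPM in knockout imiquimod skin, against 1.53, 16.7 and 2.73 CPM in knockout DMSO skin and 4.73 and 3.70 CPM in Cre-negative imiquimod skin. Every single-change library had under 1 CPM of Ngp, whereas Retnlg lay above its Cre-negative DMSO values in both single groups. The Retnlg call held with the sex term and without any one library, and that of Ngp was lost with the sex term. S100a8 and S100a9 were not beyond both: S100a8 had 81710 and 34420 CPM in knockout imiquimod skin, against 49780, 12880 and 11010 CPM in knockout DMSO skin and 54080 and 121400 CPM in Cre-negative imiquimod skin.

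Chemokine genes were higher beyond both in 11 of 31 and lower in 0, with 4 without knockout imiquimod replicate 1 or Cre-negative imiquimod replicate 1, 7 without knockout DMSO replicate 3, and 4 with the sex term. Cxcl2 had 1152 and 1204 CPM in knockout imiquimod skin, against 28.5, 21.6 and 38.3 CPM in knockout DMSO skin (log2 5.32 ± 0.56, adjusted p = 1.2e-04) and 56.7 and 28.6 CPM in Cre-negative imiquimod skin (log2 4.79 ± 0.65, adjusted p = 5.5e-04). Il1b had 2729 and 2225 CPM in knockout imiquimod skin, against 68.8, 29 and 103 CPM in knockout DMSO skin (log2 5.20 ± 0.51) and 88.2 and 103 CPM in Cre-negative imiquimod skin (log2 4.69 ± 0.59). Cd14 had 713 and 489 CPM in knockout imiquimod skin, against 8.15, 19.3 and 19.9 CPM in knockout DMSO skin (log2 5.23 ± 0.47) and 8.75 and 13.1 CPM in Cre-negative imiquimod skin (log2 5.77 ± 0.57). For all 3 genes the libraries of knockout imiquimod skin lay above every other library shown, and the calls held in every setting run. Nos2 had 69.4 and 34.4 CPM in knockout imiquimod skin, against 0, 0.582 and 0.0282 CPM in knockout DMSO skin and no count in Cre-negative imiquimod skin. Its call was lost with the sex term.

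Other lists with many members higher beyond both were matrix proteases (12 of 28; 5 without knockout imiquimod replicate 1 and 3 with the sex term), alarmins (11 of 32; 6 and 1), monocyte and macrophage markers (10 of 27; 4 and 4, and 5 without Cre-negative imiquimod replicate 1), NF-kB and Toll-like receptor genes (9 of 31; 4 and 5) and interferon response genes (8 of 45; 2 and 1, 4 without Cre-negative imiquimod replicate 1 or knockout DMSO replicate 3, and 5 without Cre-negative DMSO replicate 1 or 2). Shorter lists also lay above the 4.41% of all genes. They include the IL-1 and IL-36 family (6 of 18, and 3 with the sex term) and epidermal cytokines (6 of 25, and 1). Necroptosis, pyroptosis and apoptosis genes had 5 of 32 higher and 4 lower beyond both, and 3 and 0 with the sex term. Interferon genes had a median log2 change of 1.37 over knockout DMSO skin and 1.41 over Cre-negative imiquimod skin. The same list had a median of -0.83 in knockout DMSO skin and -0.82 in Cre-negative imiquimod skin against Cre-negative DMSO skin, comparisons that share those control libraries. Ifitm6, an interferon-induced membrane protein of myeloid cells, had 276 and 65 CPM in knockout imiquimod skin, against 0.255, 0.971 and 0.451 CPM in knockout DMSO skin and 1.58 and 0.875 CPM in Cre-negative imiquimod skin. Both single groups lay below the 4.30, 2.68 and 4.52 CPM of Cre-negative DMSO skin.

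Lower beyond both were 9 of 46 suprabasal and envelope genes, with 0 without knockout imiquimod replicate 1, 15 without knockout DMSO replicate 2 and 0 with the sex term. Krt15 had 2.36 and 1.86 CPM in knockout imiquimod skin, against 17.3, 29.8 and 31 CPM in knockout DMSO skin (log2 -3.63 ± 0.44, adjusted p = 2.6e-04) and 37.9 and 33.4 CPM in Cre-negative imiquimod skin (log2 -4.07 ± 0.46, adjusted p = 2.2e-04). This call held in every setting run, as did that of Igfbp2, an insulin-like growth factor binding protein, with 0.913 and 1.24 CPM in knockout imiquimod skin, 14.3, 6.02 and 8.62 CPM in knockout DMSO skin and 28 and 20.1 CPM in Cre-negative imiquimod skin. Flg2 had 0.304 and 0.531 CPM in knockout imiquimod skin, against 6.11, 3.30 and 7.61 CPM in knockout DMSO skin and 12.2 and 3.70 CPM in Cre-negative imiquimod skin, and its call was lost without knockout imiquimod replicate 1 and with the sex term. S1pr5, a sphingosine phosphate receptor, had 0.989 and 0.974 CPM in knockout imiquimod skin, 11.7, 5.43 and 14.8 CPM in knockout DMSO skin and 12.2 and 8.95 CPM in Cre-negative imiquimod skin, a call lost with the sex term. Tslp had 0.533 and 0.885 CPM in knockout imiquimod skin, 5.09, 3.79 and 10.3 CPM in knockout DMSO skin and 9.61 and 23.8 CPM in Cre-negative imiquimod skin, all single-change libraries lying above the 1.79, 2.68 and 3.35 CPM of Cre-negative DMSO skin; its call was lost in 12 settings, among them the sex term, knockout DMSO replicate 1 left out and the libraries left out as named above.

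Among all genes 4.41% were higher beyond both, and wound keratins and NRF2 targets are set beside that share. Of 24 wound keratins and small proline-rich proteins 0 were higher beyond both, with a median log2 change of -1.02 over knockout DMSO skin and -1.17 over Cre-negative imiquimod skin. Krt6a had 5298 and 9216 CPM in knockout imiquimod skin, 17110, 14510 and 19520 CPM in knockout DMSO skin and 12040 and 9671 CPM in Cre-negative imiquimod skin. Both single groups lay above knockout imiquimod skin without overlap, a difference that did not pass the test against either (adjusted p = 0.064 against knockout DMSO and 0.38 against Cre-negative imiquimod skin). NRF2 targets had a median log2 change of -0.37 over knockout DMSO skin, where 2 of 43 passed higher and 1 lower, and of 1.76 over Cre-negative imiquimod skin, where 23 passed higher and 1 lower; 2 were higher beyond both, a share near that of all genes, and 0 without knockout imiquimod replicate 1, 1 without Cre-negative imiquimod replicate 1 or knockout DMSO replicate 3, and 0 with the sex term. Gsta4 had 365 and 628 CPM in knockout imiquimod skin, 1020, 928 and 850.2 CPM in knockout DMSO skin and 90.0 and 167 CPM in Cre-negative imiquimod skin. Sebaceous lipid genes had a median of -0.31 over knockout DMSO skin, where 2 of 26 were lower and 1 higher. Over Cre-negative imiquimod skin their median was -1.29, with 11 lower and 0 higher. Beside the NRF2 and sebaceous counts, 8.56% of all genes were higher and 2.52% lower over knockout DMSO skin. Over Cre-negative imiquimod skin 11.6% of all genes were higher and 6.33% lower.

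**Figure D5:**
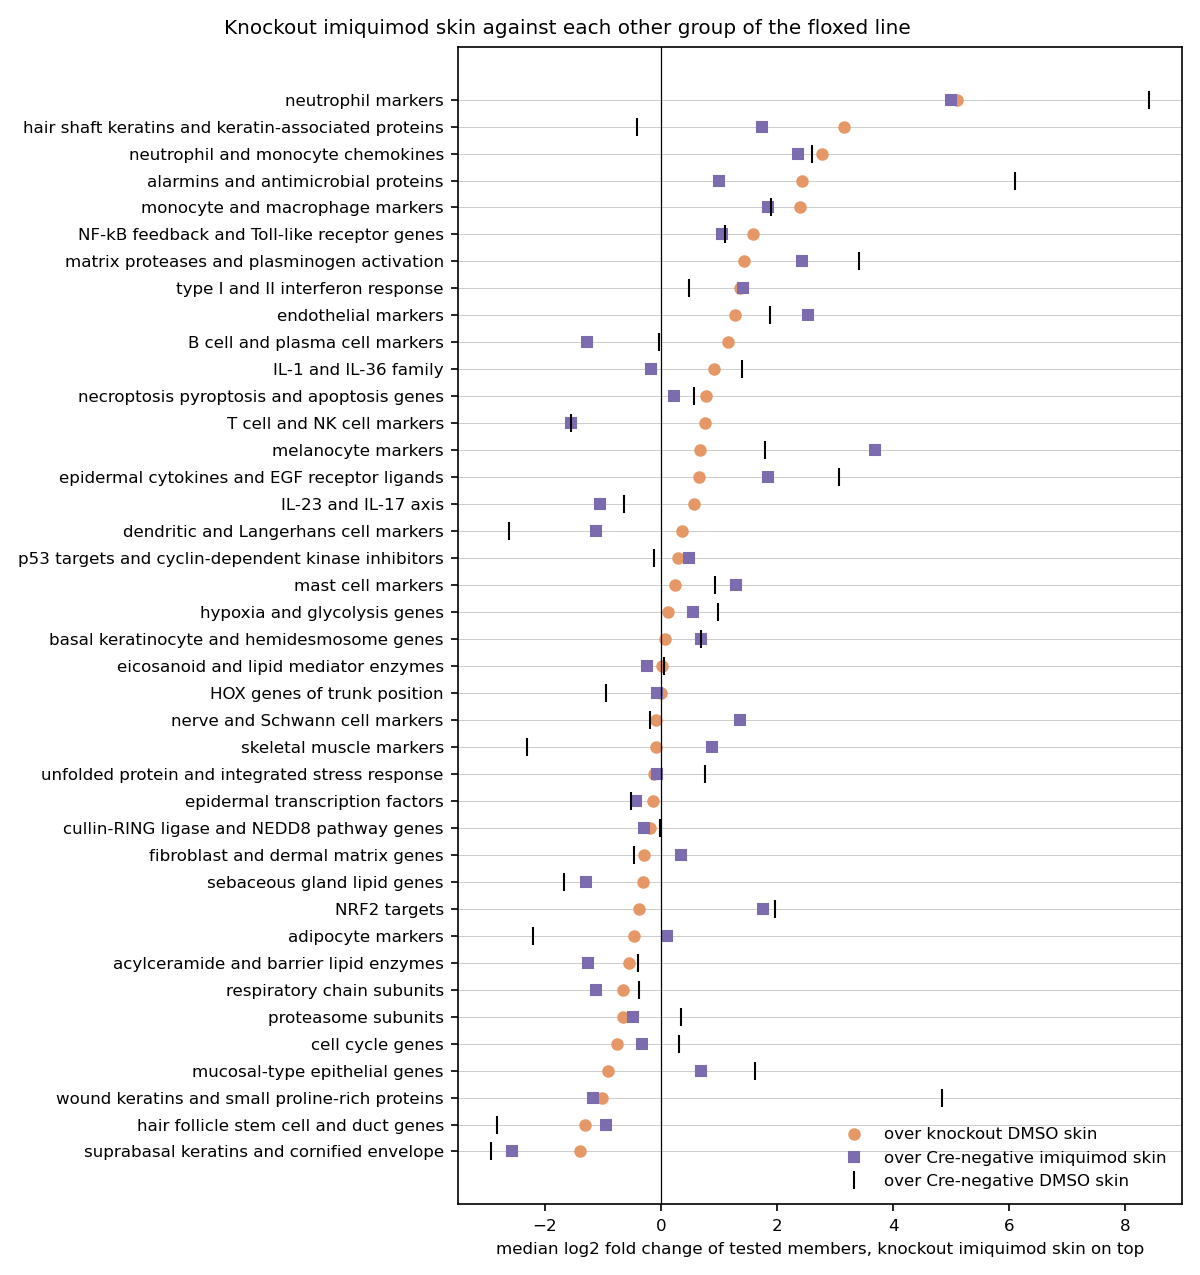
Median log2 fold change of the tested members of each list in knockout imiquimod skin over knockout DMSO skin (circles), Cre-negative imiquimod skin (squares) and Cre-negative DMSO skin (vertical ticks). Lists are ordered by the circles; neutrophil markers are near 5 over both single groups, while wound keratins are at -1.02 and -1.17 with a tick at 4.84.

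A last test asked whether the change in skin with both differed from the sum of the 2 single changes on the log2 scale. It passed for 3785 of 16027 genes (23.6%), 2242 with a positive departure (14%) and 1543 with a negative one (9.63%). The number was 1174 without knockout imiquimod replicate 1 and 1469 with the sex term. Library size as the only scaling moved the median departure of all genes to 0.84, with 3650 upward and 511 downward, so the directions below are those under TMM scaling. Of the 2405 genes that rose in knockout imiquimod over Cre-negative DMSO skin, 533 departed upward, 395 downward and 1477 did not pass. Of the 1927 that fell, 438 departed upward, 122 downward and 1367 did not pass. In Krt6a each change alone gave higher values than both together, and the departure was -7.36 ± 0.61 (adjusted p = 6.9e-05). Wound keratins and small proline-rich proteins departed downward in 20 of 24 and upward in 0. Cell cycle genes departed downward in 26 of 54 and upward in 1. Interferon response genes departed upward in 22 of 45 and downward in 0, and skeletal muscle genes upward in 18 of 24; 19 of these 24 had fallen in knockout DMSO and 22 in Cre-negative imiquimod skin, against the same Cre-negative DMSO libraries. For Ngp the departure was 10.62 ± 2.44 (adjusted p = 0.0089; not called with the sex term), whereas for Il1b it was 0.01 ± 0.95 and did not pass.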

How the data were processed

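Libraries were made from mouse skin with the QuantSeq FWD kit, per the labels, which reads a tag near the 3′ end of transcripts. The authors deposited raw counts per gene for 56953 genes and 14 libraries. A column of gene lengths, so named per the file headers, was not used. Per the submitters' processing notes, the names recorded are GRCm38, GRCm39, DESeq2, STAR and featureCounts, without role or version. How strand and multi-mapping reads were handled is not stated, so paralogs, antisense and overlapping genes are uncertain.

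Genes were kept with edgeR's filterByExpr (16027), scaled by TMM and fitted with edgeR 4.0.16 in R 4.3.3. The fit had 1 mean for each of 6 groups over all 14 libraries and quasi-likelihood tests of contrasts. Besides the groups described above, these were wild-type B6 skin with imiquimod and wild-type B6 skin with DMSO. The wild-type libraries therefore also informed the filter, the scaling and the spread behind the p-values. In a fit of the floxed line only, 4230 of 15386 genes passed against Cre-negative DMSO skin. Adjusted p-values are Benjamini-Hochberg over all genes tested, with a threshold of 0.05. CPM are TMM-scaled, and ± is a standard error. Folds against a group at 0 use a floor of 3 counts per group. Members, 40 lists (1031 genes tested, 30 in more than 1 list) and tests were chosen with earlier results of these data known.

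Named genes were the 12 highest and 12 lowest changes and the 10 highest and lowest beyond both, each with at least 5 CPM in the higher group, the 6 smallest p-values for additivity, up to 4 smallest p-values per list, and a fixed set; other members, given by symbol only, were chosen after their values were seen. Alternatives used DESeq2 1.42.0, limma 3.58.1 voom, other scalings and filters, a replicate block, a sex term, male libraries and leaving out each library. Where that leaves 1 library in a group, it is assumed to vary like the other groups. Levels are compared within genes. The procedure was also run on simulated counts in which few genes changed, and only in knockout imiquimod skin. That setting is simpler than these data, so it does not measure error rates here. Promoters are RefSeq, GRCm38.p6. A few genes are not reported here.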

Additional observations from a re-analysis of the deposited data

Results flagged for a closer look

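The results below were marked because the imiquimod response differed between knockout and Cre-negative skin by a direct test of the difference, which is the departure from additivity. It passed for 3785 genes, and of the named genes the 6 with the smallest p-values are given. Serpina9, a serine protease inhibitor, departed by -7.57 ± 0.56 (adjusted p = 4.4e-05), with 6.47 and 11.3 CPM in knockout imiquimod skin, 22.9, 16.7 and 18.1 CPM in knockout DMSO skin, 31.1 and 41.4 CPM in Cre-negative imiquimod skin and 0.336, 0.438 and 0.437 CPM in Cre-negative DMSO skin. Krt6a departed by -7.36 ± 0.61 and Slpi by -7.45 ± 0.65 (adjusted p = 6.9e-05). Duoxa1, which matures the hydrogen peroxide source DUOX1, departed by -5.05 ± 0.44 (adjusted p = 6.9e-05), and Il33 by -6.27 ± 0.56 (adjusted p = 8.0e-05). These 5 genes were higher in value in each single group than in Cre-negative DMSO skin. Sema3d, a semaphorin, departed upward by 7.30 ± 0.62 (adjusted p = 6.9e-05), with 2.66 and 2.92 CPM in knockout imiquimod skin, 1.27, 1.26 and 0.648 CPM in knockout DMSO skin, 0.717 and 1.48 CPM in Cre-negative imiquimod skin and 49.5, 72.9 and 69.7 CPM in Cre-negative DMSO skin. All 6 kept this call in every setting run. Groups of 2 or 3 libraries were not tested for single libraries that stand apart.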

How the results depend on the processing

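Of 193 named genes fitted, none changed direction outside the leave-one-out settings, where Il36a ran from -1.73 to 0.13 (positive without knockout imiquimod replicate 1) and Mki67 from -0.17 to 0.45 (negative without knockout imiquimod replicate 2); neither passed the test in the full data. The cell cycle median ran from -0.16 to 0.80, negative in the same case, and the p53 median was 0.01 with the stricter filter. With a fold change of 2 as the null, 2233 genes passed against Cre-negative DMSO skin, 323 were beyond both and 1780 departed from additivity. With the sex term the last 2 counts were 157 and 1469, and the first was 3551. Against knockout DMSO skin, against Cre-negative imiquimod skin and for each change alone, the fold change of 2 gave 699, 1175, 1775 and 1078. limma voom with sample quality weights gave 1790 against Cre-negative imiquimod skin and 7297 in knockout DMSO skin, and the fit without the 2 libraries highest in Rn18s gave 1762 in Cre-negative imiquimod skin. Leaving out 1 library gave 2501 to 4866 genes against Cre-negative DMSO skin, 178 to 867 beyond both and 1174 to 3733 departing from additivity, the lowest each time without knockout imiquimod replicate 1. Library size alone moved the median of all genes by -0.18 against Cre-negative DMSO skin (1787 higher, 1984 lower) and by 0.84 for additivity, where the split became 3650 up and 511 down instead of 2242 and 1543. It became 1429 and 186 against knockout DMSO skin and 2443 and 496 against Cre-negative imiquimod skin. The small medians of the hair shaft, cullin, lipid mediator and B cell lists changed sign in 1 or more settings. Whether libraries with the same replicate number were paired could not be told. Correlations of deviations were 0.263 and 0.062 over 2 pairs of equal number. With 2 knockout imiquimod libraries the deviations mirror each other, as in -0.263 for replicate 2 with Cre-negative DMSO replicate 1. With the replicate block the counts were 4007, 636 and 3623. The cause of these changes was not tested. Fits of male libraries could not give the last 2 counts, because knockout DMSO skin had none, nor could the fit of 5 libraries. The 2 libraries of knockout imiquimod skin limit all estimates.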
